A study of Mus musculus with 12 samples.

Results

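Fadd, Tradd, Casp8, Cflar, Ripk1, Ripk3, Mlkl, Zbp1, Birc2 and Birc3 encode the core of the death receptor complexes and the necroptosis machinery. These 10 genes were taken by their symbols from the 55281 genes counted in gonadal white adipose tissue (GWAT), and all 10 were detected in all 12 libraries and passed the filter on low counts. The libraries came from male mice with floxed Hoip (Rnf31), either WT (Hoip fl/fl AdipoQ.Cre-) or HoipA-KO (Hoip fl/fl AdipoQ.Cre+), aged 22 to 24 weeks, so that the controls carried the floxed allele as well. From 6 weeks of age they had received a control diet with 14% fat (CD) or a high-fat diet with 60% fat (HFD) for 16 weeks. Each of the 4 groups had 3 libraries, and each library pooled tissue of 3 mice, so the spread given here is between pools. AdipoQ.Cre deletes Hoip in mature adipocytes, while macrophages, vessels and progenitor cells of the same tissue keep the gene.

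When tumor necrosis factor (TNF) binds its receptor, the adaptor TRADD, the kinase RIPK1 and the ubiquitin ligases cIAP1 and cIAP2 assemble a first complex, on which HOIP builds linear ubiquitin chains that hold the complex together and pass the signal to NF-κB. When this complex is weakened, RIPK1 can join FADD and caspase-8 in a second complex that starts apoptosis, with cFLIP as the partner that restrains caspase-8. When caspase-8 is blocked, RIPK3 phosphorylates MLKL, which opens the plasma membrane in necroptosis, and ZBP1 can recruit RIPK3 without a death receptor.

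Totals ran from 30513446 to 60540225 estimated counts per library, at which 3 counts, taken as the floor, correspond to 0.0496 to 0.0983 CPM, the counts scaled to the size of a library. Levels below are CPM scaled by TMM, a normalization between libraries, over all 12 libraries. WT CD replicate 3, which the deposited comparisons of the authors leave out, correlated across genes with the other WT CD replicates at r = 0.785 and 0.794, against 0.907 between those and 0.971 to 0.993 within the other groups. WT CD replicate 2 held 15040 CPM of 8 epididymal epithelium markers, against 1323 in HoipA-KO HFD replicate 1 and at most 96.5 in the others. As in those comparisons, fold changes and tests use 11 libraries without WT CD replicate 3, with values over all 12 beside them. Rnf31, the targeted gene, had 12.8 to 22.5 CPM in all libraries and a log2 fold change of -0.083 in HoipA-KO on CD (SE 0.14, adjusted p = 0.654, from the quasi-likelihood (QL) test of edgeR, adjusted by Benjamini-Hochberg (BH)). Whole tissue was sequenced, so the deletion cannot be read from this gene. The summed level of 12 macrophage markers was 561.9 to 885.8 CPM in WT CD, 10290 to 13360 in HoipA-KO CD, 2261 to 6555 in WT HFD and 8244 to 12460 in HoipA-KO HFD, and no marker was at 0. The 10 adipocyte markers summed to 13890 to 49300, 6086 to 9208, 21880 to 29520 and 5486 to 8111 CPM in the same order. The defining markers of the labelled tissue were thus present in every library. In whole tissue, fewer cells of a type and less RNA per cell cannot be told apart.

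On CD, 6 of the 10 genes were higher and 1 was lower in HoipA-KO than in WT mice. Tradd, Casp8, Ripk1, Ripk3, Mlkl and Zbp1 rose, Birc2 fell, and Fadd, Cflar and Birc3 did not pass the threshold (adjusted p under 0.05, edgeR QL test, BH over 18427 genes). Among all genes tested, 18.9% were called higher and 18.8% lower. The same numbers of members were called over 12 libraries, where 15.6% of 18074 genes were called higher and 19.1% lower. The median log2 fold change of the 10 genes was 0.739, against -0.055 over all genes tested, and over 12 libraries 0.969 against -0.21. On HFD, 2 of the 10 rose in HoipA-KO mice, Tradd and Ripk3, and none fell, where 4.2% of all genes were called higher and 7.62% lower. Over 12 libraries, with 0.531% of genes called higher, neither passed. The median of the members on HFD was 0.254, against 0.0579 over all genes.

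**Figure D1:**
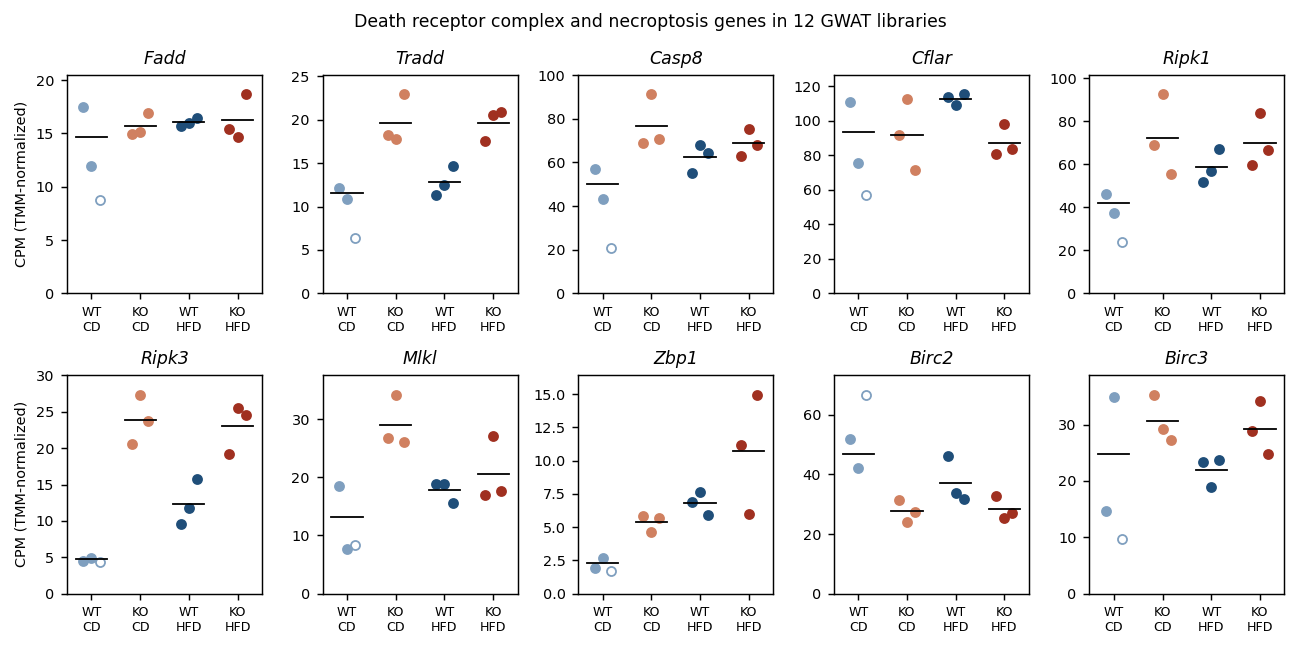
Level of each of the 10 genes in CPM (linear axis from 0) in the 12 libraries of WT and HoipA-KO (KO) mice on CD or HFD. Each point is a pool of 3 mice, the open point is WT CD replicate 3, and the line is the mean of the filled points. Ripk3 sits between 4.38 and 4.95 CPM in WT CD and between 19.1 and 27.3 CPM in both HoipA-KO groups.

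**Figure D2:**
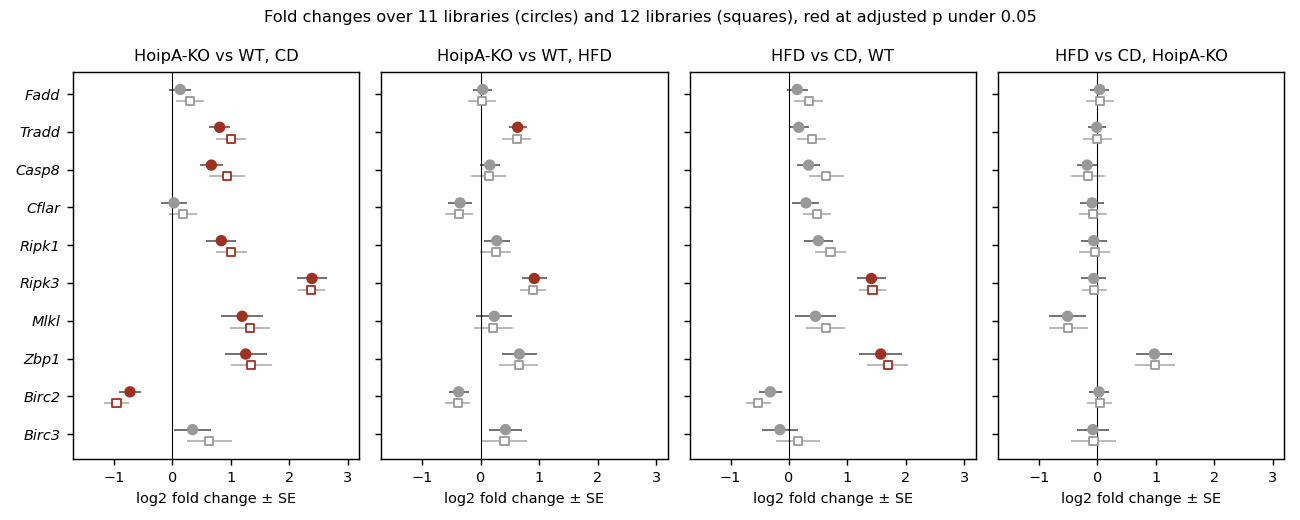
Log2 fold change with its SE (x axis) of each gene in 4 comparisons, with circles over 11 libraries and squares over 12, in red where the adjusted p was under 0.05. In HoipA-KO against WT on CD 7 genes are red, and in HFD against CD within HoipA-KO none is.

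Ripk3, the kinase that commits a cell to necroptosis, showed the widest difference between genotypes of the 10 genes. It had 4.46, 4.95 and 4.38 CPM in the WT CD replicates in order and 20.6, 27.3 and 23.7 CPM in HoipA-KO CD. In WT HFD it had 9.60, 11.8 and 15.7 CPM, and in HoipA-KO HFD 19.1, 25.5 and 24.5 CPM. Every WT HFD library lay above every WT CD library, and both HoipA-KO groups lay above both WT groups. The fold change on CD was 5.24 (log2 2.39, SE 0.26, adjusted p = 0.000452) and 5.19 over 12 libraries (adjusted p = 0.000121), in the BH-adjusted edgeR QL test. On HFD it was 1.89 (log2 0.92, SE 0.21, adjusted p = 0.0276) by the same edgeR test, and 1.86 over 12 libraries, where the adjusted p was 0.0592. The call on HFD was also lost without WT HFD replicate 1 (log2 0.766, adjusted p = 0.104), WT HFD replicate 2 (0.878, adjusted p = 0.10), HoipA-KO HFD replicate 2 (0.826, adjusted p = 0.0973) or HoipA-KO HFD replicate 3 (0.866, adjusted p = 0.0907), all from edgeR. Without these 4 libraries in turn 279, 331, 313 and 550 of all genes were called on HFD, against 2179 over 11 libraries. The call on CD remained without any single library. The genotype effect was smaller on HFD than on CD by 1.47 on the log2 scale (SE 0.32, interaction adjusted p = 0.0403 in edgeR, and a difference of -1.48 with adjusted p = 0.0367 over 12 libraries). Of all genes tested, 3.58% had a negative interaction past the threshold over 11 libraries and 2.7% over 12, and Ripk3 was the only member among them. The interaction call was lost without WT CD replicate 2 (-1.55), any 1 of the HoipA-KO CD replicates (-1.58, -1.34 and -1.38 in order), WT HFD replicate 2 (-1.51), WT HFD replicate 3 (-1.14), HoipA-KO HFD replicate 1 (-1.23) and also HoipA-KO HFD replicate 3 (-1.42), and the lowest adjusted p of these edgeR tests was 0.0665. It was also lost without a filter on low counts (-1.41, edgeR adjusted p = 0.055). Over all genes 721 interactions were called over 11 libraries, while the omissions that ended the Ripk3 call left 1 to 4, or 226 without WT HFD replicate 3. The macrophage marker sum was ordered by group as Ripk3 was, lowest in WT CD, then WT HFD, and highest in both HoipA-KO groups. Sums of mast cell, progenitor and fibroblast, and neutrophil markers were also lower in WT CD than in both HoipA-KO groups. The 5 mast cell markers, of which 4 were higher on CD, summed to 19.3 to 29.4 CPM in WT CD, 25.4 to 162.5 in WT HFD, 433 to 526 in HoipA-KO CD and 241.3 to 651.7 in HoipA-KO HFD. The 6 progenitor and fibroblast markers, of which 3 were higher on CD, summed to 735.3 to 1199, 1818 to 2727, 2815 to 3033 and 3610 to 3749 CPM in the same order, and no marker of either list was at 0. The 5 neutrophil markers, of which 1 of 4 tested was higher on CD, summed to 2.975 to 6.823 CPM in WT CD and 13.65 to 26.13 in WT HFD. They summed to 12.29 to 25.65 CPM in HoipA-KO CD and 13.23 to 85.03 in HoipA-KO HFD, with up to 2 of them at 0. The part of these cell types in the Ripk3 result was not tested.

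Mlkl, the membrane-permeabilizing substrate of RIPK3, had 18.5, 7.69 and 8.30 CPM in WT CD and 26.8, 34.2 and 26.1 CPM in HoipA-KO CD. It had 18.9, 18.8 and 15.6 CPM in WT HFD and 17.0, 27.1 and 17.7 CPM in HoipA-KO HFD. The genotypes did not overlap on CD and overlapped on HFD, where 1 HoipA-KO pool stood above the rest. Mlkl rose on CD, with a log2 difference of 1.20 (SE 0.36, adjusted p = 0.0273) and 1.34 over 12 libraries (adjusted p = 0.0149), both by the BH-adjusted edgeR QL test. WT CD replicate 1 was more than 2 times as high as the other WT CD pools, and without WT CD replicate 2 the value was 0.698 (edgeR adjusted p = 0.118), without HoipA-KO CD replicate 2 it was 1.04 (adjusted p = 0.0772). Without WT CD replicate 1 it was 1.95 and remained called, and in a model of WT CD and HoipA-KO CD alone it was 1.26 (edgeR adjusted p = 0.0609). On HFD the difference was 0.23 (SE 0.31, edgeR adjusted p = 0.630). Its interaction was -0.96 (SE 0.47, edgeR adjusted p = 0.256). Without single libraries the interaction ran from -1.74 to -0.462. The value of -1.74 was without WT CD replicate 1, which leaves WT CD replicate 2 alone in its group.

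Zbp1, a nucleic acid sensor that binds RIPK3 and is known as an interferon-induced gene, had the lowest level per kilobase of the 10. It had 1.93, 2.71 and 1.69 CPM in WT CD and 5.83, 4.66 and 5.67 CPM in HoipA-KO CD. In WT HFD it had 6.88, 7.67 and 5.93 CPM, and in HoipA-KO HFD 11.2, 5.95 and 15.0 CPM. All 9 libraries of the other groups lay above WT CD, and the HoipA-KO HFD pools spread the most. Zbp1 rose on CD, with a log2 difference of 1.26 (SE 0.36, adjusted p = 0.0216) and 1.35 over 12 libraries (adjusted p = 0.0154), in the BH-adjusted edgeR QL test. Without WT CD replicate 1 the value was 1.02 (edgeR adjusted p = 0.109), without HoipA-KO CD replicate 1 it was 1.20 (adjusted p = 0.0561) and without HoipA-KO CD replicate 3 it was 1.11 (adjusted p = 0.0648). With the replicate number as a block it was 1.17 (edgeR adjusted p = 0.0554). On HFD it was 0.66 (SE 0.31, edgeR adjusted p = 0.170).

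Ripk1, the kinase shared by survival and death complexes, had 46.1, 37.5 and 24.0 CPM in WT CD and 68.8, 92.4 and 55.5 CPM in HoipA-KO CD. On HFD it had 51.7, 57.0 and 67.2 CPM in WT and 59.5, 83.8 and 66.7 CPM in HoipA-KO mice. The genotypes separated on CD and overlapped on HFD. Ripk1 rose on CD by a log2 fold change of 0.84 (SE 0.25, adjusted p = 0.0276) and 1.01 over 12 libraries (adjusted p = 0.0171), and differed by 0.27 on HFD (SE 0.22, adjusted p = 0.416), in the BH-adjusted edgeR QL test. The call on CD was lost without any of 4 libraries in turn, at 0.699 without WT CD replicate 2, 0.883 without HoipA-KO CD replicate 1, 0.595 without HoipA-KO CD replicate 2 and 0.741 without HoipA-KO HFD replicate 3. It was also lost in a model of WT CD and HoipA-KO CD alone (0.878, edgeR adjusted p = 0.0598).

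Tradd, the adaptor that recruits RIPK1 to the TNF receptor, was with Ripk3 the gene that rose on both diets over 11 libraries. It had 12.2, 10.9 and 6.35 CPM in WT CD and 18.3, 17.8 and 22.9 CPM in HoipA-KO CD. It had 11.3, 12.5 and 14.7 CPM in WT HFD and 17.5, 20.6 and 20.9 CPM in HoipA-KO HFD. No HoipA-KO library on either diet reached down to a WT library. The log2 fold change was 0.81 on CD (SE 0.18, adjusted p = 0.00679) and 0.63 on HFD (SE 0.15, adjusted p = 0.0336), in the BH-adjusted edgeR QL test. Over 12 libraries the values were 1.00 (adjusted p = 0.0143) and 0.61 (adjusted p = 0.191) with edgeR. The call on CD remained without any single library. The call on HFD was lost without HoipA-KO CD replicate 1 (0.633), WT HFD replicate 1 (0.551), WT HFD replicate 2 (0.608), HoipA-KO HFD replicate 2 (0.587) or HoipA-KO HFD replicate 3 (0.582), and without a filter on low counts (0.643, edgeR adjusted p = 0.0581).

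Fadd, the adaptor that carries caspase-8 into the complex, had 17.5, 11.9 and 8.78 CPM in WT CD and 15.0, 15.1 and 16.9 CPM in HoipA-KO CD. In WT HFD it had 15.7, 15.9 and 16.5 CPM and in HoipA-KO HFD 15.4, 14.6 and 18.7 CPM. The genotypes overlapped on both diets. Its log2 fold change was 0.14 on CD (SE 0.18, adjusted p = 0.585) and 0.034 on HFD (SE 0.16, adjusted p = 0.900) by the BH-adjusted edgeR QL test, and 0.30 on CD over 12 libraries.

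Casp8, the initiator caspase of this complex and a brake on necroptosis, had 56.9, 43.2 and 20.7 CPM in WT CD and 68.8, 91.2 and 70.8 CPM in HoipA-KO CD. On HFD it had 55.4, 67.8 and 64.3 CPM in WT and 63.1, 75.6 and 67.9 CPM in HoipA-KO mice. The genotypes separated on CD and overlapped on HFD. Casp8 rose on CD, with a log2 difference of 0.67 (SE 0.19, adjusted p = 0.0234) and 0.93 over 12 libraries (adjusted p = 0.0358), and differed by 0.16 on HFD (SE 0.17, adjusted p = 0.550), in the BH-adjusted edgeR QL test. Without WT CD replicate 2 the value on CD was 0.485 (edgeR adjusted p = 0.140), and without HoipA-KO CD replicate 2 it was 0.504 (adjusted p = 0.0641). The call was also lost at a larger estimate, in a model of WT CD and HoipA-KO CD alone (0.713, edgeR adjusted p = 0.0591) and with WT CD replicates 1 and 3 as the WT CD pools (0.994, adjusted p = 0.0554). Cflar, which encodes cFLIP, had 111, 75.7 and 57.3 CPM in WT CD and 92.0, 113 and 71.3 CPM in HoipA-KO CD. It had 114.1, 109.5 and 115.4 CPM in WT HFD and 80.6, 98.0 and 83.6 CPM in HoipA-KO HFD. The genotypes overlapped on CD, while on HFD all WT pools lay above all HoipA-KO pools. The log2 difference was 0.029 on CD (SE 0.23, adjusted p = 0.933) and -0.35 on HFD (SE 0.20, adjusted p = 0.264), and neither passed the BH-adjusted edgeR QL test.

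Birc2 and Birc3 encode cIAP1 and cIAP2, the ligases that ubiquitinate RIPK1. Birc2 had 51.8, 42.2 and 66.8 CPM in WT CD and 31.5, 24.1 and 27.4 CPM in HoipA-KO CD. It had 46.1, 33.8 and 31.8 CPM in WT HFD and 32.9, 25.4 and 27.0 CPM in HoipA-KO HFD. The WT CD pools were all above the HoipA-KO CD pools, and on HFD the genotypes overlapped. Birc2 fell by 0.72 on the log2 scale on CD (SE 0.19, adjusted p = 0.0162) and by 0.95 over 12 libraries (adjusted p = 0.00941), in the BH-adjusted edgeR QL test. Without WT CD replicate 1 the value was -0.575 (edgeR adjusted p = 0.0839) and without HoipA-KO CD replicate 2 it was -0.651 (adjusted p = 0.0527). On HFD it was -0.38 (SE 0.17, edgeR adjusted p = 0.172). Birc3, itself a known NF-κB target, had 14.7, 34.9 and 9.76 CPM in WT CD and 35.3, 29.3 and 27.2 CPM in HoipA-KO CD. In WT HFD it had 23.4, 19.0 and 23.7 CPM and in HoipA-KO HFD 28.8, 34.2 and 24.7 CPM. WT CD replicate 2, the library with the high epididymal markers, lay within the HoipA-KO range on CD, while on HFD all HoipA-KO pools were above WT. The log2 difference was 0.35 on CD (SE 0.31, adjusted p = 0.406) and 0.43 on HFD (SE 0.28, adjusted p = 0.319), in the BH-adjusted edgeR QL test. Without WT CD replicate 2 the value on CD was 1.10 (edgeR adjusted p = 0.00936), and without WT CD replicate 1 it was -0.154 (adjusted p = 0.617). With WT CD replicates 1 and 3 it was 1.33 (edgeR adjusted p = 0.00443).

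Birc2 and Birc3 lie next to each other on chromosome 9 and share sequence, with 93 of 4579 stretches of 31 bases in Birc2 transcripts also found in Birc3. Birc3 shared 5.34% of its stretches with the gene model Gm7019, so the split of reads between these genes is uncertain. Estimated counts of each were not whole (by more than 0.01) in 11 of 12 libraries, while their sum was whole in 7 of 12. Summed, the pair had 66.5, 77.1 and 76.5 CPM in WT CD and 66.8, 53.3 and 54.6 CPM in HoipA-KO CD. The log2 difference of the sum was -0.26 on CD (SE 0.16, adjusted p = 0.234) and -0.024 on HFD (SE 0.15, adjusted p = 0.922), in the BH-adjusted edgeR QL test. Casp8 shared 8.02% of its stretches with Gm20257, Ripk1 5.77% with Gm17084 and Cflar 4.46% with Gm9845, and their estimated counts were not whole in 12, 11 and 8 libraries. Tradd, Ripk3 and Mlkl shared none with another gene.

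Ratios between partners within a library do not depend on scaling between libraries, and 4 of them were compared between genotypes within diet. Such a ratio can still follow the mix of cells in a library, and the part of that mix in these ratios was not tested. The ratio of Cflar to Casp8 counts was 1.61 to 2.77 in the 6 WT libraries and 1.01 to 1.34 in the 6 HoipA-KO libraries, without overlap on either diet. Its log2 value was lower in HoipA-KO by 0.641 on CD and 0.516 on HFD, a mean of -0.578 (two-sided exact permutation p = 0.005, adjusted p = 0.00667 over the 4 ratios), and 0.005 was the smallest p these arrangements allow. These counts were not divided by gene length, so a ratio above 1 does not mean more Cflar than Casp8 transcripts. Per kilobase of exon Casp8 was above Cflar, at 17.3 against 7.37 CPM in WT CD and 26.6 against 7.27 in HoipA-KO CD. The lengths merge all annotated exons of a gene, 2.893 kb for Casp8 and 12.67 kb for Cflar. Shorter Cflar transcripts would raise its level per kilobase, so which gene had more transcripts was not settled. Restraint by cFLIP depends on its amount relative to caspase-8, and transcript counts give no protein amounts. The ratio of Birc3 to Birc2 was 0.146 to 0.826 in WT and 0.875 to 1.35 in HoipA-KO libraries, with a mean log2 difference of 0.986 (exact permutation p = 0.005, adjusted p = 0.00667). It was 0.601 without WT CD replicate 1, and reads may be split between these genes as described. The ratio of Ripk3 to Ripk1 was 0.0969 to 0.234 in WT and 0.296 to 0.427 in HoipA-KO libraries, with a mean log2 difference of 1.12 (exact permutation p = 0.005, adjusted p = 0.00667). The ratio of Mlkl to Ripk3 was 0.995 to 4.14 in WT and 0.720 to 1.30 in HoipA-KO libraries, overlapping through WT HFD replicate 3. Its mean log2 difference was -0.897 (exact permutation p = 0.010, adjusted p = 0.010), and -0.542 without WT CD replicate 1. Over 12 libraries the 4 differences were -0.676, 1.27, 1.00 and -0.826, in the order given.

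**Figure D3:**
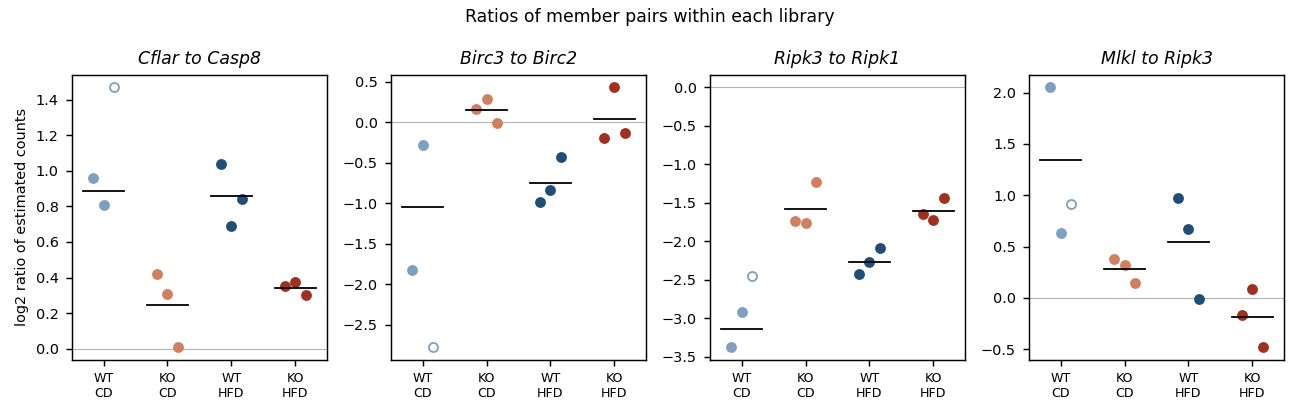
Log2 ratio of estimated counts of 4 pairs of genes (y axis) in the 12 libraries by group, each point a pool of 3 mice, the open point WT CD replicate 3 and the line the mean of the filled points. For Cflar to Casp8, Birc3 to Birc2 and Ripk3 to Ripk1 the HoipA-KO libraries do not overlap the WT libraries on either diet.

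The diet comparison in WT mice, which shares the WT CD libraries with the comparison of genotypes on CD, called 2 of the 10 genes higher on HFD and none lower, where 9.35% of all genes were called higher and 5.47% lower. Over 12 libraries it again called 2 higher, where 9.05% of genes were called higher. The necroptosis kinase Ripk3 rose by a log2 fold change of 1.41 (SE 0.25, adjusted p = 0.00842) and the sensor Zbp1 by 1.57 (SE 0.36, adjusted p = 0.0222), in the BH-adjusted edgeR QL test. Over 12 libraries the values were 1.43 (edgeR adjusted p = 0.00355) and 1.69 (adjusted p = 0.0136). The Zbp1 call was lost without WT CD replicate 1 (1.36), WT CD replicate 2 (1.84), WT HFD replicate 2 (1.48) or WT HFD replicate 3 (1.55), and with the replicate number as a block (1.5, edgeR adjusted p = 0.0586). In a model of WT CD and WT HFD alone neither gene passed (Ripk3 1.31, edgeR adjusted p = 0.0922, Zbp1 1.46, adjusted p = 0.0877). Ripk1 did not overlap between the diets in WT mice either, with a log2 difference of 0.50 (SE 0.25, edgeR adjusted p = 0.200). Mlkl differed by 0.45 (SE 0.35, edgeR adjusted p = 0.411). Its difference was 1.24 without WT CD replicate 1 and -0.048 without WT CD replicate 2, so it depended on which of these WT CD pools was kept. In the same comparison 11 of 12 macrophage markers were higher, and their part in these results was not tested.

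Within HoipA-KO mice none of the 10 genes and 0 of 18427 genes passed between HFD and CD (0% higher and 0% lower, edgeR QL test, BH-adjusted). At an unadjusted p under 0.05 edgeR counted 415 genes, and DESeq2's Wald test called 7. Zbp1 had the largest estimate among the members, 0.98 on the log2 scale (SE 0.31). Mlkl had -0.51 (SE 0.31) and the other 8 lay between -0.18 and 0.039. Ripk3 differed by -0.064 (SE 0.21). For Zbp1 every HoipA-KO HFD pool lay above every HoipA-KO CD pool, but HoipA-KO HFD replicate 2 had 5.95 CPM against 5.83 in HoipA-KO CD replicate 1. Without TMM scaling these were 5.645 and 5.88 CPM, so the groups overlapped.

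**Figure D4:**
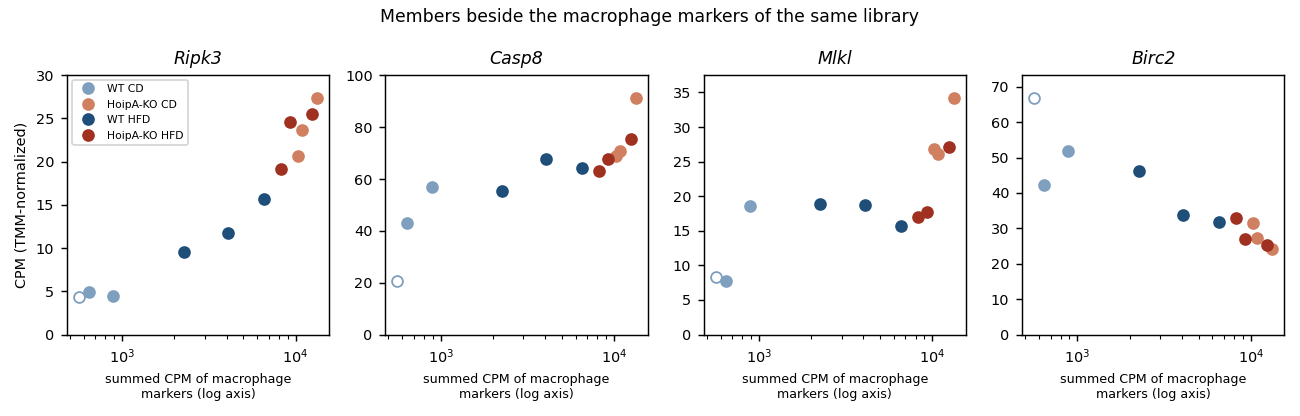
CPM of 4 genes (linear y axis from 0) against the summed CPM of 12 macrophage markers in the same library (log x axis), with colors for the 4 groups and the open point for WT CD replicate 3. Ripk3 is low in the WT CD libraries, where the markers sum to 561.9 to 885.8 CPM, and high in the HoipA-KO libraries, where they sum to 8244 or more, while Birc2 runs the other way.

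Per kilobase of exon, Casp8 had the highest level of the 10 genes in each group and Zbp1 the lowest. This order rests on lengths that merge all annotated exons of a gene, and the lengths of the expressed transcripts were not tested. The group means of CPM per kilobase, over 11 libraries, ran from 17.3 in WT CD to 26.6 in HoipA-KO CD for Casp8 and from 0.657 in WT CD to 3.03 in HoipA-KO HFD for Zbp1. Ripk3 moved from 2.05 in WT CD, the second lowest of the 10, to 10.4 in HoipA-KO CD, close to Tradd at 10.5 and Mlkl at 12.6.

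In each library the level of a gene follows its group and its mix of cells, so the likeness of genes is given as a description only. Over 11 libraries, on log2(CPM + 1), Ripk3 was most like Plk1 (r = 0.996), Snx20 (0.995) and Slfn2 (0.994) among 12019 genes. Plk1 is a mitotic kinase, and in the 11 libraries the 5 proliferation markers summed to 19.3 and 19.8 CPM in WT CD and 159.2 to 299 in HoipA-KO CD. They summed to 77.8 to 172.3 CPM in WT HFD and 164.2 to 247.3 in HoipA-KO HFD. WT CD replicate 3, not used for these r values, had 214.9 CPM. Casp8 was most like Prep (0.987), Ripk1 like Asxl1 (0.991), Tradd like Amdhd2 (0.987), Mlkl like Pon2 (0.977) and Zbp1 like Sfrp1 (0.914). Fadd was most like Pola2 (0.941), Cflar like Eloa (0.980), Birc2 like Zranb1 (0.985) and Birc3 like Trim36 (0.953). Among the members Casp8 and Ripk1 were most alike (0.919), Casp8 and Mlkl had 0.899, and Birc2 ran against Ripk3 (-0.933). The strongest positive value of Fadd was 0.402, with Zbp1, and that of Cflar 0.311, with Ripk1.

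The start sites of genes that moved differently are shown for comparison, because interferon is known to act on this pathway through a response element in promoters. Each sequence runs 5′ to 3′ on the strand of the gene from 250 bases before to 50 bases after a start site, in RefSeq on GRCm38.p6, with capitals marking the motif where found. Ripk3, which rose on CD, lies on chr14:55788808-55789107, minus strand. Cflar, which did not, lies on chr1:58711241-58711540, plus strand, and the second start of Ripk1 on chr13:34002624-34002923, plus strand.
Ripk3: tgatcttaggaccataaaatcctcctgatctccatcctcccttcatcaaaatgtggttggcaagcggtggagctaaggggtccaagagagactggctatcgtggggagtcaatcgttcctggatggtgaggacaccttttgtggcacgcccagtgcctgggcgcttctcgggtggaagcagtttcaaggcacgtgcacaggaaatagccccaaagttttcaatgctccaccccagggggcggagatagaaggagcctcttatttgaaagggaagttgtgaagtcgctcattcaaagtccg
Ripk1: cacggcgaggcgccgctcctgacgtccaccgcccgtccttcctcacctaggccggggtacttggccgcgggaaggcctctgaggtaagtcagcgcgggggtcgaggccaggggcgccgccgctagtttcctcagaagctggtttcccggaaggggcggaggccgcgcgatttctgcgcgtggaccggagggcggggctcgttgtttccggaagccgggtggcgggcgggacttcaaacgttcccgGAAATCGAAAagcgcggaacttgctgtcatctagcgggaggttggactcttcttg
Cflar: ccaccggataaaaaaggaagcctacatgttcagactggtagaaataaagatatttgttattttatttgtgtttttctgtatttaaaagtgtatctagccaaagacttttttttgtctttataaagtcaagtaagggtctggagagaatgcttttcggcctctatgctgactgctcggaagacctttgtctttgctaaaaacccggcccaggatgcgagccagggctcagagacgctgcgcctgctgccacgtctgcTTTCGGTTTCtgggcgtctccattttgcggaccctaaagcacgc
The interferon-stimulated response element was searched as TTTC, any 2 bases and TTTC again, on both strands. It was found 6 bases after the start in Cflar and, on the opposite strand, 5 bases before it in Ripk1, and in no other listed promoter of the members, while 3.44% of 32851 promoters held it. The kappa-B site was searched on the strand of the gene only, as GGG, A or G, any 2 bases, 2 bases of C or T, and CC. It was in 5.89% of promoters and in none of the listed promoters of the members, and the opposite strand was not searched for it. Tradd and Zbp1 were not among the promoters listed. A match is a description of these letters and not a binding site.

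Ripk3 lies at chr14:55784995-55788865 and Mlkl at chr8:111311797-111338177, both on the minus strand, in GRCm38 with GENCODE M21. Casp8 (chr1:58795374-58847503) and Cflar (chr1:58711508-58758884) lie on the plus strand of the same chromosome as near neighbors, and their products are related. Birc2 (chr9:7818227-7837064) and Birc3 (chr9:7848699-7873186) lie on the minus strand. Ripk1 is at chr13:34002363-34037147 on the plus strand, and on the minus strand Fadd is at chr7:144577318-144582463, Tradd at chr8:105258286-105264609 and Zbp1 at chr2:173206612-173218923. All 10 are annotated as protein-coding, and counts cover whole genes.

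The rest of the pathway was described by lists of genes that stand around the members, whose counts are read beside the 18.9% of all genes called higher and 18.8% called lower on CD. Among 12 ligands and receptors of the TNF family, not all of them death receptors, 4 were higher (33.3%) and 1 lower in HoipA-KO on CD. Their median log2 fold change was 0.621. The 4 were Tnf, Tnfsf12, Tnfrsf1b and Tnfrsf12a. Tnfrsf1a, the first TNF receptor, was not called (0.60, SE 0.28, edgeR adjusted p = 0.116), nor were Tnfrsf10b, Tnfrsf25 and Tnfrsf21. Over 12 libraries Tnfrsf21 was called (1.25, edgeR adjusted p = 0.0474). Tnf, the ligand itself, rose by 3.75 (SE 0.46, adjusted p = 0.000540), Tnfrsf1b, its second receptor, by 3.76 and Tnfsf12, which encodes TWEAK, by 2.63, while Fas, the receptor for Fas ligand, fell by 1.20 on the log2 scale (adjusted p = 0.00361), in the BH-adjusted edgeR QL test. Fas was not called over 12 libraries (-0.93, edgeR adjusted p = 0.0566), and on HFD over 11 libraries it was the list's only call (-1.09, edgeR adjusted p = 0.0165). Of 24 adaptors, ubiquitin enzymes and kinases of the first complex, 10 were higher (41.7%) and 1 lower, with a median of 0.369. Ikbke rose by 2.63, the adaptor Traf5 by 1.42 and Tbk1, a kinase that restrains RIPK1, by 0.86, while Tab3 fell by 0.88. On HFD, where 4.2% of all genes were called higher and 7.62% lower, 3 of the 24 were higher (12.5%), Ikbke among them (0.87), and 1 lower, Tab3 (-0.78). Of 14 genes that execute apoptosis, 6 were higher (42.9%) and 1 lower (median 0.298). Apaf1, the apoptosome scaffold, rose by 1.99, the pore-forming Bak1 by 1.68 and Bax by 1.31, and Cycs, which encodes cytochrome c, fell by 1.09 on the log2 scale but did not pass over 12 libraries (-0.79, edgeR adjusted p = 0.0732).

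Of 20 triggers and regulators of necroptosis, 8 were higher (40%) and 2 lower on CD (median 0.372) and 2 were higher (10%) and 1 lower on HFD. The receptor Tlr4 rose by 1.93 and its adaptor Ticam1 by 1.19, while the phosphatase Ppm1b fell by 0.87 and the ligase Stub1 by 0.51 on the log2 scale. Aurka, a mitotic kinase, rose by 2.36, but over 12 libraries its value was -1.33 (edgeR adjusted p = 0.361). Stub1 was not called over 12 libraries either (-0.29). The highest sum of proliferation markers in WT CD, 214.9 CPM, was that of the library added, and its part in the Aurka value was not tested. Of 19 interferon-stimulated genes tested of the 20 listed, 2 were higher and none lower (median 0.013), Oas1a by 3.13 and Oasl2 by 1.36. That share, 10.5%, was below the 18.9% of all genes. Of 20 NF-κB target genes, 17 were higher (85%) and 1 lower (median 1.78), and on HFD 5 were higher (25%) and 1 lower. The survival gene Bcl2a1b rose by 4.66 and the chemokines Cxcl2 and Ccl2 by 3.72 and 3.46, while Sod2, the mitochondrial superoxide dismutase, fell by 0.90 on the log2 scale. Over 12 libraries on HFD, 0.531% of all genes were called higher and 2.78% in either direction. There 1 interferon-stimulated gene and 1 NF-κB target were called higher, and no gene of the other 4 lists was called. Between the diets in WT mice, where 9.35% of all genes were called higher and 5.47% lower, 4, 5, 2, 2, 2 and 8 genes of the 6 lists were higher, in the order given (33.3%, 20.8%, 14.3%, 10%, 10.5% and 40%), and Stub1 was lower (-0.69). Over 12 libraries, where 9.05% of all genes were called higher and 15% in either direction, 4, 5, 2, 3, 3 and 8 were higher and none lower. Stub1 was then at -0.45 (edgeR adjusted p = 0.234) and Aurka, called at 1.68 over 11 libraries, at -1.97 (adjusted p = 0.241). In the comparison of genotypes 11 of 12 macrophage markers were higher on CD and 5 on HFD, and 9 and 10 of 10 adipocyte markers were lower, and their part in these list counts was not tested.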

How the data were processed

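Bulk RNA of GWAT was sequenced in 12 libraries. Per the labels and methods, the authors made poly(A)-selected stranded libraries, trimmed reads with Trim Galore 0.6.7, aligned them with STAR 2.7.10a and deposited estimated counts per gene from Salmon 1.5.2. These expected counts are not normalized. The processing notes give GRCm38, while the methods name a human assembly. The identifiers are those of mouse genes, and the annotation release is not given in the sources used here, so positions and lengths were taken from GENCODE M21. Lengths merge all annotated exons of a gene. The authors also deposited fold changes and p-values from DESeq2 1.38.1 with CPM values, which were not used.

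Counts were rounded, filtered with filterByExpr, scaled by TMM and tested in 1 model of 4 groups with edgeR's quasi-likelihood (QL) test (R 4.3.3, edgeR 4.0.16, limma 3.58.1), with p-values adjusted over all genes by Benjamini-Hochberg (BH) and a threshold of 0.05. WT CD replicate 3 was left out, as in the deposited comparisons. Log2 fold changes use a prior count of 0.125, and ratios an offset of 0.5 counts. The lowest count of a member was 79, for Zbp1 in WT CD replicate 1, and pools varied with a biological coefficient of 0.394 (11 libraries) or 0.514 (all 12). The labels do not say that a replicate number marks a shared batch. Deviations of same-numbered libraries from their group means correlated at 0.144, 0.506 and 0.287 between HoipA-KO CD and HoipA-KO HFD, all over 0.1, a hint that the numbers pair these groups. Between the other groups they correlated at -0.313 to 0.382, with 3 of 15 over 0.1, and the numbers were not taken as pairs. The main test paired no groups, and the block in the alternative edgeR model was 1 effect shared by all 4 groups. The scripts were tested on simulated data. Alternatives were all 12 libraries, DESeq2 1.42.0 as test or size factors, no filter or at least 10 counts in every library, protein-coding genes, a replicate block, the compared groups alone, and leaving out each library. The pair of WT CD replicates 1 and 3 was added after seeing the data. The 10 genes and all lists were chosen with earlier results of these data known. Genes named from a list are up to 3 with the largest rise and up to 3 with the largest fall on CD among those called with a mean of at least 1 CPM. Outside this rule, Tnfrsf12a, Tnfrsf1a, Tnfrsf10b, Tnfrsf25 and Tnfrsf21 were named as well. Like genes are the 3 with the highest r among those with at least 5 CPM, of which the first is given for members other than Ripk3.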

Additional observations from a re-analysis of the deposited data

Results flagged for a closer look

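The effect of HoipA-KO on Ripk3 differed between the diets, with a log2 fold change 1.47 lower on HFD than on CD (interaction -1.47, SE 0.32, adjusted p = 0.0403, edgeR QL test, BH-adjusted). All 6 HoipA-KO libraries lay between 19.1 and 27.3 CPM, while WT libraries ran from 4.38 to 4.95 CPM on CD and from 9.60 to 15.7 CPM on HFD. Leaving out any 1 of 8 libraries ended the call, at -1.58 without HoipA-KO CD replicate 1 and -1.14 without WT HFD replicate 3. Over all genes these omissions left 1 to 226 interactions called, against 721.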

How the results depend on the processing

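Counts and ranges of members stand beside the share, or range of shares, of all genes called in the same settings. Over 11 libraries 7 of the 10 genes were called in HoipA-KO against WT on CD (37.7% of all genes), and in a model of the compared groups alone 4 were (24.2%). Leaving out 1 library at a time gave 3 to 7 (27.7% to 38.8%), with 3 without HoipA-KO CD replicate 2 (27.8%). On HFD 2 were called (11.8%), but 0 over all 12 libraries (2.78%) and 0 with replicates 1 and 3 as the WT CD pools (3.62%). Without a filter on low counts 1 was called (5%), and without single libraries 0 to 2 (1.53% to 19.9%). For HFD against CD in WT mice 2 were called (14.8%). With the replicate block 1 was (8.15%), with the compared groups alone 0 (0%), and without single libraries 1 to 2 (5.52% to 29.7%). The interaction called 1 member (3.91%), against 0 without a filter (1.86%) and 0 with WT CD replicates 1 and 3 (1.76%). Without single libraries it called 0 to 2 (0.00524% to 18.2%). Within HoipA-KO mice every setting called 0 members (0% to 0.038%). The other settings kept these counts within 1.5 times.

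With the replicate block, taken as pairing of same-numbered libraries (5 pairs), the mean log2 ratio differences were -0.519 for Cflar to Casp8, 0.976 for Birc3 to Birc2, 0.959 for Ripk3 to Ripk1 and -0.836 for Mlkl to Ripk3, where the smallest adjusted exact permutation p that 5 pairs allow is 0.0625. By number, 7 of 12 libraries correlated best on average with libraries of their own number, a hint from the data and not from the design. The number to be met without any pairing was not computed, so the hint is a weak one. For HFD against CD within HoipA-KO, the block, 1 replicate effect shared by all 4 groups in edgeR, called 0 genes, as without it. At an unadjusted p under 0.05 it counted 367 genes, against 415. A pairing of the HoipA-KO groups alone was not fitted. Among the members the block ended the calls of Zbp1, on CD (1.17, edgeR adjusted p = 0.0554) and between the diets in WT mice (1.5, adjusted p = 0.0586), and no other call of a member. Without single libraries the differences ran from -0.621 to -0.519, from 0.601 to 1.37, from 1.01 to 1.23 and from -1.25 to -0.542.

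Values near 0 changed sign and were not called. Cflar on CD was -0.0129 with DESeq2's size factors, -0.0172 without a filter, -0.0291 with at least 10 counts in every library, -0.107 among protein-coding genes and -0.0128 in DESeq2's Wald test. Birc3 between the diets in WT mice was 0.155 over 12 libraries and, with WT CD replicates 1 and 3, 0.855 (edgeR adjusted p = 0.0404), the one changed sign that passed. Its interaction was -0.221 over 12 libraries, -0.0535 with the block and -0.922 with WT CD replicates 1 and 3. Tradd between the diets in HoipA-KO mice was 2.13e-05 over 12 libraries, 0.0126 with at least 10 counts, 9.09e-05 among protein-coding genes and 0.00184 with the compared groups alone. Without single libraries, HoipA-KO against WT on CD ran from -0.114 to 0.430 for Fadd, -0.219 to 0.317 for Cflar and -0.154 to 1.10 for Birc3, and on HFD from -0.0828 to 0.0934 for Fadd and -0.0292 to 0.370 for Mlkl. HFD against CD in WT mice ran from -0.112 to 0.460 for Fadd, -0.0396 to 0.265 for Tradd, -0.048 to 1.24 for Mlkl and -0.634 to 0.596 for Birc3. In HoipA-KO mice it ran from -0.067 to 0.103 for Fadd, -0.0675 to 0.118 for Tradd, -0.238 to 0.107 for Cflar, -0.226 to 0.181 for Ripk1, -0.168 to 0.0816 for Ripk3, -0.0599 to 0.121 for Birc2 and -0.220 to 0.0384 for Birc3. The interaction ran from -0.411 to 0.150 for Fadd, -0.268 to 0.0391 for Tradd and -0.675 to 0.564 for Birc3.

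Over all genes, calls on CD were 6947, and 4208 with the compared groups alone. On HFD they were 2179, but 503 over 12 libraries, 672 with WT CD replicates 1 and 3 and 4455 by DESeq2. They were 279 and 331 without WT HFD replicates 1 and 2, 313 and 550 without HoipA-KO HFD replicates 2 and 3, 1126 without HoipA-KO CD replicate 1, and 3542 and 3797 without WT CD replicates 1 and 2. In WT mice they were 2731 between the diets, 1502 with the block, 4551 by DESeq2 and 0 with the compared groups alone. They were 5985 and 1053 without WT CD replicates 1 and 2, 1137 and 1045 without WT HFD replicates 2 and 3 and 1791 without HoipA-KO CD replicate 1. The interaction had 721, 377 with the block, 326 with WT CD replicates 1 and 3 and 2374 by DESeq2. Without single libraries it had 3668 and 1 without WT CD replicates 1 and 2, 2, 2 and 4 without the HoipA-KO CD replicates in order, 4 and 226 without WT HFD replicates 2 and 3, and 3 and 1 without HoipA-KO HFD replicates 1 and 3. The cause of these changes was not tested beyond the fewer libraries or genes that a setting uses. WT CD rests on 2 pools, both of which move the calls on CD.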
